A study of Mus musculus with 6 samples.

Results

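A set of 6 genes of monocarboxylate transport was followed in mouse embryonic stem cells: the transporter genes Slc16a1, Slc16a3, Slc16a6, Slc16a9 and Slc16a13, and Bsg, which encodes the partner protein basigin. They are 6 of the 27179 genes in the deposited table, found by their symbols, and the 5 transporters are part of the 14 SLC16 genes listed there. The 6 genes were chosen from the measured differences between the same libraries that are compared below. Their differences, intervals and calls are therefore given as a description and not as a test. RNA was sequenced in 6 libraries of stem cells that express Tfe3-ERT2, a tamoxifen-responsive form of mouse Tfe3, and that were grown on gelatin in medium with serum and LIF. In one group, 3 libraries came from cells given 4-hydroxytamoxifen (4OHT) at 1 µg/mL for 48 h, which moves the fusion into the nucleus, and in the other 3 libraries came from cells given the ethanol vehicle (EtOH). Both groups carry the fusion, and the promoter that drives it and the number of clones are not stated. Without a group lacking the fusion, responses to 4OHT itself and to the fusion cannot be told apart. Separate cultures are not named for the libraries, so every error and p-value below measures only the spread between these libraries.

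Proteins of the SLC16 family, the monocarboxylate transporters (MCTs), sit in the plasma membrane. The best known of them move lactate, pyruvate and ketone bodies together with a proton, in the direction set by the gradients of both. Several MCTs need a single-pass membrane glycoprotein as a partner to reach the cell surface, and for the products of Slc16a1 and Slc16a3 that partner is basigin. Embryonic stem cells run a high rate of glycolysis and export lactate, and Tfe3 belongs to the MiT/TFE factors, which bind E-box sequences and are known for their control of lysosomal genes.

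Total counts per library were between 4648374 and 6427880 in 4OHT and between 4092877 and 4984364 in EtOH. Levels are given as CPM, counts divided by a library size that was scaled by TMM factors, on the usual CPM scale, or, wherever genes are compared with each other, as TPM, which also divides by gene length. The floor set by 3 counts lay at 0.467 to 0.736 CPM across libraries and covers counting error only. Counts of Tfe3, which pool the endogenous gene and whatever sequence the fusion shares with it, were 829 ± 4.32 CPM in 4OHT and 1034 ± 35.0 CPM in EtOH (SD, n = 3 each). Among all 12345 genes tested, 21.4% were called higher in 4OHT and 20.6% lower, the shares to set beside the list counts here and below. All 12 listed markers of embryonic stem cells were tested, with 5 called higher and 4 lower. They summed to 7299 to 7325 CPM in 4OHT and 6470 to 6524 CPM in EtOH. Of 8 tested markers of trophectoderm, 7 were called higher in 4OHT and none lower, with a summed level of 1001 to 1034 CPM in 4OHT and 470 to 493 CPM in EtOH over all 12 listed. Krt8 and Krt18, keratin genes of simple epithelia, made up most of that sum, Cdx2 had 6, 8 and 12 counts in 4OHT and 14, 12 and 5 in EtOH, and Elf5 had 1 count over the 6 libraries. The 12 listed markers of primitive endoderm summed to 551 to 560 CPM in 4OHT and 381 to 397 CPM in EtOH (2 of 7 tested called higher), and the 7 of fibroblasts to 19.3 to 24.9 CPM in 4OHT and 15.1 to 23.1 CPM in EtOH. The 5 listed neural markers summed to 92.6 to 103 CPM in 4OHT and 158 to 173 CPM in EtOH, with 2 of 4 tested called lower and none higher. The 6 of mesendoderm summed to 13.4 to 16.9 CPM in 4OHT and 10.3 to 11.7 CPM in EtOH, with 1 of 2 tested called higher and 1 lower. The part of these markers in the differences below was not tested, and in bulk RNA a change in the share of cells of 1 type and a change in RNA per cell cannot be told apart.

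Among the 6 genes, Slc16a9 differed most between the groups, Bsg and Slc16a6 differed by less, and Slc16a1, Slc16a3 and Slc16a13 differed little. All 6 passed the filter on low counts, but Slc16a9 passed only through the 4OHT libraries, so that a difference in it was built into its passing. The fit across all genes called 3 of the 6, all higher in 4OHT, where it called 42.0% of the 12345 genes tested, 21.4% higher and 20.6% lower. Groups did not overlap in 2 of the 6, Slc16a9 and Bsg, against 48.8% of all tested genes. Since the genes were picked with these values known, nothing is read from either count.

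**Figure D1:**
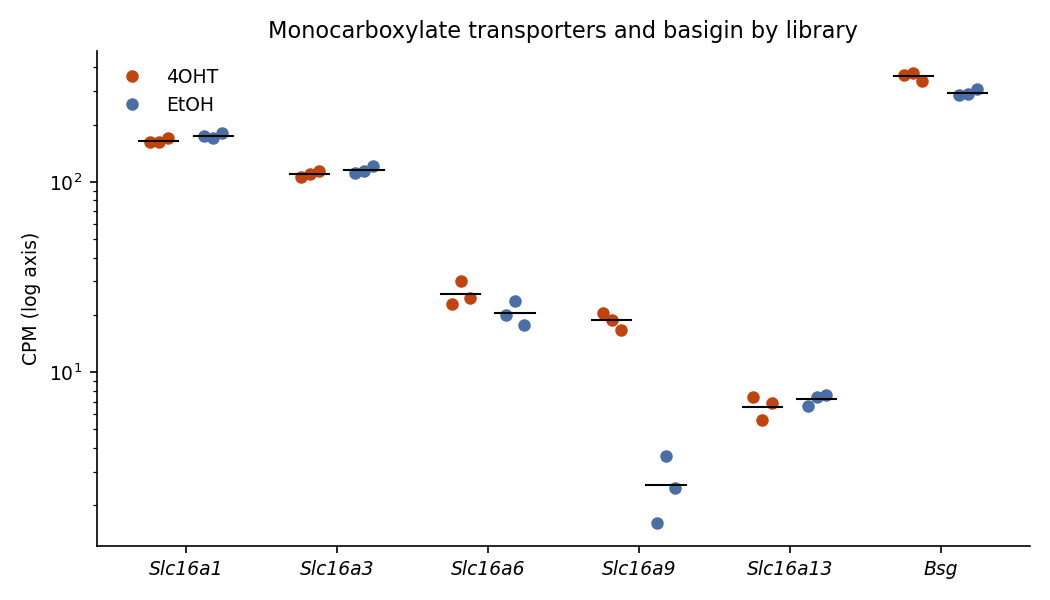
Level of each gene in every library, in CPM on a log axis, with 4OHT points left of EtOH points and a line at each group mean (n = 3 libraries each). The 4OHT and EtOH points stand apart for Slc16a9 and Bsg and overlap for the other 4 genes.

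Slc16a9, which encodes MCT9, a transporter linked to carnitine in human genetics, was a low gene in EtOH. It had 95, 105 and 107 counts in the 4OHT libraries and 8, 16 and 10 counts in the EtOH libraries. In CPM this was 20.6, 18.9 and 16.7 in 4OHT, against 1.61, 3.61 and 2.45 in EtOH. The lowest 4OHT library lay far above the highest EtOH library. The fitted difference was 7.29-fold (log2 fold change 2.87, SE 0.22), with a 95% interval of 5.38-fold to 9.88-fold, and it ranked 9th of all tested genes by size of rise. The spread in EtOH, a coefficient of variation of 39.3%, stood beside 29.7% that counting alone gives at so few reads, so the size of the fold rests on few EtOH reads. Leaving out each library in turn gave log2 fold changes between 2.59 and 3.21. The gene lies on chromosome 10 (GRCm38, the assembly also called mm10, 70245276 to 70285951 in RefSeq, plus strand). Of its exon bases in GENCODE vM21, 23.5% are shared with the gene models Gm7097 and Gm9877 on the opposite strand, and neither is a row of the table. The strand setting of the counting is not stated, so reads from the opposite strand in these bases cannot be told apart from those of Slc16a9.

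Bsg, also known as CD147, was the highest of the 6 genes. It stood at 364, 373 and 339.8 CPM in 4OHT, against 285, 289 and 306 CPM in EtOH. Every 4OHT library was above every EtOH library. The difference was 1.22-fold (log2 fold change 0.29, SE 0.04, 95% interval 0.21 to 0.37 on the log2 scale), and it lay between 0.26 and 0.33 when each library was left out in turn. Of all tested genes, 79.4% had a smaller log2 fold change than Bsg. The gene lies on chromosome 10 as well, from 79704358 to 79711979 on the plus strand, and shares no exon bases with another GENCODE gene model.

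Slc16a1 encodes MCT1, the widely expressed transporter for lactate and pyruvate uptake and release. It was at 161, 163 and 170.0 CPM in 4OHT, against 174, 169.9 and 179.8 CPM in EtOH. The groups touched without separating, since the highest 4OHT library was at the level of the lowest EtOH library. The log2 fold change was −0.08 (SE 0.05, 95% interval −0.18 to 0.02). The coefficients of variation, 2.85% in both groups, were under the 3.31% and 3.57% that counting alone gives in 4OHT and EtOH. Slc16a1 lies on chromosome 3, from 104638664 to 104658462 on the plus strand.

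Slc16a3 encodes MCT4, a low-affinity transporter best known for lactate export from glycolytic cells and for induction by hypoxia. It was at 106, 111 and 114 CPM in 4OHT, against 111, 114 and 122 CPM in EtOH, with overlapping groups. The log2 fold change was −0.06 (SE 0.06, 95% interval −0.17 to 0.05). It lies on chromosome 11, from 120948484 to 120959000 on the plus strand. Slc16a1 and Slc16a3 thus stood close to their EtOH levels while Bsg, the partner of both products, was 1.22-fold higher.

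Slc16a6 encodes MCT7, whose zebrafish counterpart exports the ketone body beta-hydroxybutyrate from liver cells. It was at 22.7, 30.02 and 24.6 CPM in 4OHT, against 20.1, 23.7 and 17.7 CPM in EtOH. The groups overlapped, because the lowest 4OHT library fell under the highest EtOH library. The log2 fold change was 0.33 (SE 0.12, 95% interval 0.09 to 0.58), or 1.26-fold. It dropped to 0.22 without 4OHT replicate 2 and reached 0.45 when the EtOH library with the highest value was left out. Its call by the fit was lost in 4 of 13 alternatives, with DESeq2 and without 4OHT replicate 2, EtOH replicate 1 or EtOH replicate 3. The gene lies on chromosome 11, from 109450855 to 109473598 on the minus strand, and 22.5% of its exon bases are shared with Amz2 and Arsg on the opposite strand. Amz2 was at 28.5 ± 2.12 CPM in 4OHT and 31.7 ± 2.72 CPM in EtOH, and Arsg at 2.00 ± 0.689 CPM in 4OHT and 1.99 ± 0.269 CPM in EtOH (SD, n = 3 each).

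Slc16a13 encodes MCT13, a little studied member that has been linked to lactate transport in mice. It was at 7.36, 5.57 and 6.85 CPM in 4OHT, against 6.63, 7.44 and 7.60 CPM in EtOH. The groups overlapped, and each library held between 31 and 44 counts. The log2 fold change was −0.13 with a wide 95% interval of −0.56 to 0.30. It lies on chromosome 11, from 70216789 to 70222740 on the minus strand.

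**Figure D2:**
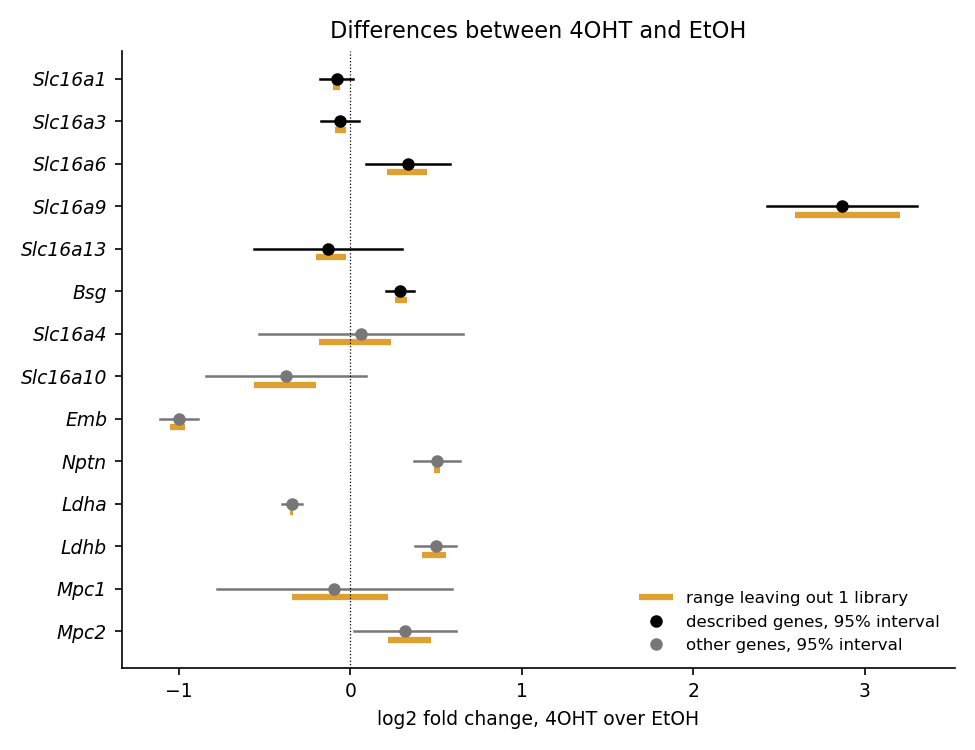
Log2 fold change of 4OHT over EtOH for the 6 genes described (black) and for other SLC16 genes, partner proteins, lactate dehydrogenases and pyruvate carrier genes (grey), with 95% intervals from the fit, and below each the range obtained by leaving out 1 library at a time (orange). Slc16a9 stands at 2.87 and Emb at −1.002, while the intervals of Slc16a1, Slc16a3 and Slc16a13 include 0. For the 6 genes, which were chosen from these values, the intervals are a description only.

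Sequence before the start site was at hand in RefSeq (GRCm38.p6) for 3 of the 6 genes, Slc16a1, Slc16a3 and Slc16a9, and is shown because these genes include the largest and the smallest differences. Each window runs from 250 bases before to 50 bases after a start site of the table, on the plus strand. That site is the first base of the gene in RefSeq for Slc16a1 and Slc16a9. For Slc16a9, GENCODE places the first base at 70245100, inside the window. For Slc16a3 the site is 120949067, which lies 583 bases inside the gene as RefSeq places it. The bases before the first Slc16a3 start are therefore not shown. Capitals mark CACGTG, the palindromic E-box that MiT/TFE factors bind, and CATGTG, the core of their M-box, which was searched on both strands (as CACATG on the other).
Slc16a9, chr10:70245026-70245325: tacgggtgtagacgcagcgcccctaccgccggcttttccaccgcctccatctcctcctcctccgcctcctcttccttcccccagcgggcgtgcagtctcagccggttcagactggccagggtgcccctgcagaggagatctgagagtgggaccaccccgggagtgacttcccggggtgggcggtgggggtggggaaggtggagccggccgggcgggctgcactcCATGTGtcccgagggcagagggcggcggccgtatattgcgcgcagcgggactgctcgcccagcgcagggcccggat
Slc16a1, chr3:104638414-104638713: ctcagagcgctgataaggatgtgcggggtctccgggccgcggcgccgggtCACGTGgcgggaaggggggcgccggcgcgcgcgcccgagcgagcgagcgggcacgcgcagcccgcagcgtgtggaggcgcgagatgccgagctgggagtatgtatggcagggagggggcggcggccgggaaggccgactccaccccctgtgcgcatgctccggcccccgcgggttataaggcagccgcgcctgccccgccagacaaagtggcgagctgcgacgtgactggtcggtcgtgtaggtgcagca
Slc16a3, chr11:120948817-120949116: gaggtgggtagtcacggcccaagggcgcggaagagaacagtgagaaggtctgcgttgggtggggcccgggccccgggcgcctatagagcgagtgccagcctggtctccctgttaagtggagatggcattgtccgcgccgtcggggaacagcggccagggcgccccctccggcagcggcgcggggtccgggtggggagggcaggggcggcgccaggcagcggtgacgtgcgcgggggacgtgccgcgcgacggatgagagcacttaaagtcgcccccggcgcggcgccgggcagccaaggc
The Slc16a9 window held 1 CATGTG and no CACGTG. The CATGTG starts 26 bases before the RefSeq start site but lies after the GENCODE start at 70245100. The Slc16a1 window held 1 CACGTG, starting 200 bases before the start site, and no CATGTG. The Slc16a3 window held neither. Of all 32851 windows of the same length, 7.15% held CACGTG and 14.2% held CATGTG on either strand. Of the 12307 windows of tested genes, 10.2% held the E-box and 8.06% the M-box core. ACGTG, the core of the hypoxia response element, is contained in CACGTG, where it matches on both strands. It stood 14 and 27 bases before the inner start site of Slc16a3 and, beyond the E-box, 20 bases after the start of Slc16a1, and 19.6% of all windows and 25.7% of those of tested genes held it. All 3 windows were rich in G and C, with 70.7% in Slc16a9, 73.7% in Slc16a1 and 73.3% in Slc16a3.

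Per length, the order of the 6 genes was led by Bsg in both groups. In 4OHT, Bsg was at 469 ± 17.2 TPM, Slc16a3 at 98.2 ± 4.78, Slc16a1 at 85.3 ± 3.43, Slc16a6 at 13.1 ± 1.89, Slc16a9 at 12.0 ± 1.13 and Slc16a13 at 5.98 ± 0.846 TPM (SD, n = 3). In EtOH, Bsg was at 377 ± 11.8 TPM, Slc16a3 at 101 ± 4.43, Slc16a1 at 88.7 ± 1.14, Slc16a6 at 10.2 ± 1.73, Slc16a13 at 6.43 ± 0.502 and Slc16a9 at 1.62 ± 0.668 TPM (SD, n = 3). Slc16a9 was therefore level with Slc16a6 in 4OHT, where their libraries overlapped, and below Slc16a13 in every EtOH library. Slc16a3 was above Slc16a1 in every library of each group, but this order rests on the deposited gene lengths of 2577 and 4426 bases. Without division by length, Slc16a1 was the higher of them in both groups, and the union of Slc16a3 exons in GENCODE is 5318 bases long.

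The summed level of the 14 SLC16 genes overlapped between the groups, at 225.9 to 235 TPM in 4OHT and 220.4 to 231 TPM in EtOH. Slc16a9 made up 5.24% ± 0.592 of that sum in 4OHT and 0.710% ± 0.280 in EtOH (SD, n = 3 each). Slc16a3 made up 42.7% ± 1.26 in 4OHT and 44.5% ± 0.985 in EtOH, and Slc16a1 37.2% ± 0.757 in 4OHT and 39.1% ± 0.729 in EtOH. The libraries of the groups overlapped for the share of Slc16a3 and did not for that of Slc16a1. Together these genes gave most of the family's summed level in each group.

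**Figure D3:**
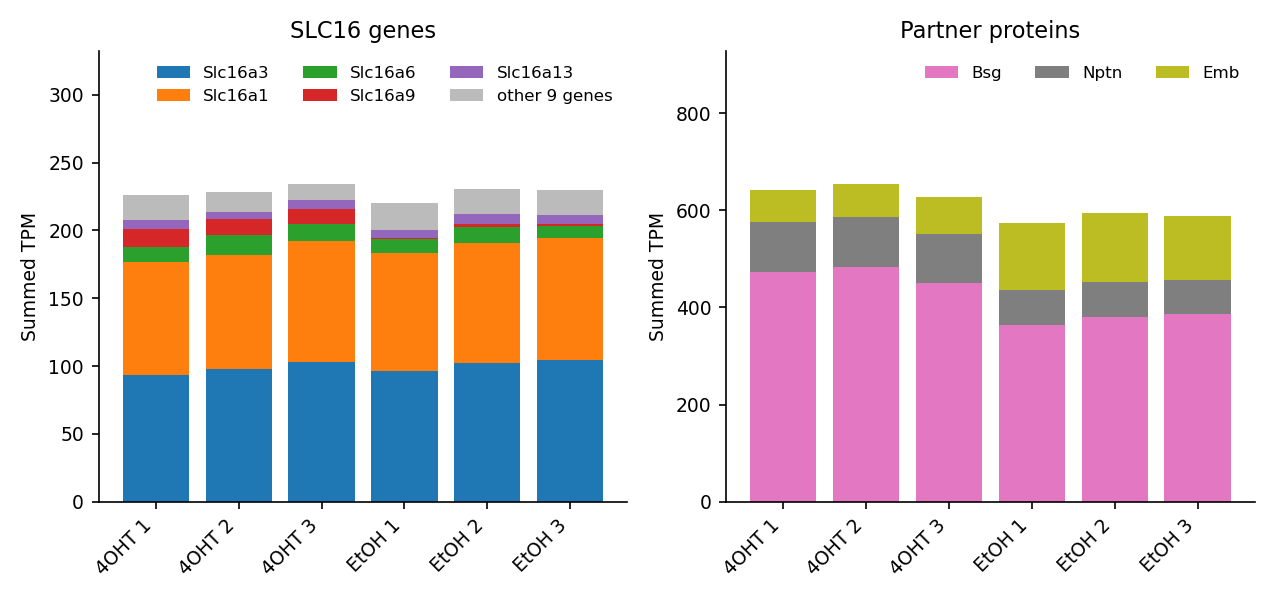
Summed TPM in every library for the SLC16 genes (left) and for the partner proteins (right), split by gene and drawn from 0, with 4OHT libraries left of EtOH libraries. The SLC16 sums lie between 220.4 and 235 TPM in all 6 libraries, and the Emb part of the partner sum is smaller in each 4OHT library than in each EtOH library.

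Other SLC16 genes were low. Slc16a10, which encodes a transporter of aromatic amino acids, was at 5.43 ± 1.25 CPM in 4OHT and 6.99 ± 1.55 CPM in EtOH (SD, n = 3 each) and was not called (log2 fold change −0.38, 95% interval −0.84 to 0.09, edgeR adjusted p = 0.20). Slc16a4 was at 3.96 ± 1.31 CPM in 4OHT and 3.67 ± 0.663 CPM in EtOH and was not called (log2 fold change 0.06, 95% interval −0.53 to 0.66, edgeR adjusted p = 0.89). A further 6 did not pass the filter. Among them, Slc16a5 had 13, 16 and 11 counts in 4OHT and 8, 3 and 6 in EtOH, and Slc16a14 had 4, 6 and 5 counts in 4OHT and 12, 9 and 3 in EtOH. Slc16a7, which encodes the high-affinity lactate and pyruvate transporter MCT2, had 1 count in each 4OHT library and 1, 5 and 0 in EtOH. Slc16a8, Slc16a11 and Slc16a12 had at most 6 counts in any library. The sodium-coupled transporters of lactate, encoded by Slc5a8 and Slc5a12, were also too low to be tested.

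Basigin is one of a small group of related MCT partners, and the other two changed in opposite directions. Emb, which encodes embigin, fell 2.00-fold, to 75.7, 78.7 and 84.9 CPM in 4OHT, against 163, 163 and 155 CPM in EtOH (log2 fold change −1.002, SE 0.06, edgeR adjusted p = 1.1e-43). Nptn, which encodes neuroplastin, rose 1.42-fold, to 94.98, 93.8 and 90.8 CPM in 4OHT, against 66.3, 64.4 and 66.2 CPM in EtOH (log2 fold change 0.50, SE 0.07, edgeR adjusted p = 3.3e-11). Neither gene's groups overlapped. Set beside each other per length, Bsg made up 73.1% ± 1.10 of the summed TPM of the 3 partner genes in 4OHT and 64.3% ± 1.24 in EtOH, Nptn 16.0% ± 0.288 in 4OHT and 12.1% ± 0.240 in EtOH, and Emb 10.9% ± 0.960 in 4OHT and 23.5% ± 1.09 in EtOH (SD, n = 3 each). The ratio of Bsg to Emb in TPM was 5.99 to 7.19 in the 4OHT libraries and 2.63 to 2.96 in the EtOH libraries. The summed partner level was 627 to 656 TPM in 4OHT and 574 to 595 TPM in EtOH. The partner sum was 2.67 to 2.87 times the SLC16 sum in the 4OHT libraries and 2.56 to 2.60 times in the EtOH libraries. These shares, ratios and sums rest on deposited lengths of 1752 bases for Bsg, 2622 for Emb and 2077 for Nptn. The unions of their exons in GENCODE are 1814, 6906 and 6168 bases long. On the opposite strand, other gene models cover 9.93% of the exon bases of Emb and 5.58% of those of Nptn. For genes named below they cover 23.1% (Mpc1), 17.5% (Car14), 16.1% (Pdha1), 13.7% (Slc4a2), 12.6% (Oxct1) and 8.72% (Crat).

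The tested lactate dehydrogenase genes differed between the groups, in opposite directions. Lactate dehydrogenase interconverts pyruvate and lactate, and its main subunits are encoded by Ldha, typical of glycolytic cells, and Ldhb. Ldha fell 1.27-fold, to 1354, 1374 and 1354 CPM in 4OHT, against 1736, 1697 and 1732 CPM in EtOH (log2 fold change −0.34, SE 0.03, edgeR adjusted p = 8.2e-24). Ldhb rose 1.41-fold, to 118, 130.0 and 121 CPM in 4OHT, against 93.6, 77.1 and 90.7 CPM in EtOH (log2 fold change 0.50, SE 0.06, edgeR adjusted p = 2.9e-13). In TPM, the ratio of Ldha to Ldhb was 7.06 to 7.69 in 4OHT and 12.4 to 14.7 in EtOH. That ratio rests on deposited lengths of 1930 and 1290 bases, where the GENCODE exon unions are 3310 and 1570 bases long. The other 3 listed lactate dehydrogenase genes were too low to be tested. Ldha has processed pseudogene copies, and the counting of reads that match several genes is not stated.

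Pyruvate enters mitochondria through a carrier made of the Mpc1 and Mpc2 products and is oxidised by the pyruvate dehydrogenase complex, which Pdk kinases switch off and Pdp phosphatases switch on. Of 15 tested genes of this step, 3 were higher, 5 lower and 7 not called (median log2 fold change 0.01). The lower calls were 3 with DESeq2 and without 4OHT replicate 1, EtOH replicate 1 or EtOH replicate 2. Mpc2 was at 17.6 ± 2.38 CPM in 4OHT and 13.97 ± 2.64 CPM in EtOH (SD, n = 3 each) and was not called (edgeR adjusted p = 0.078). The call was gained when 4OHT replicate 3 (0.026) or EtOH replicate 2 (0.020) was left out. Mpc1 was near the filter, with 8 to 20 counts a library, and was not called (edgeR adjusted p = 0.86). The catalytic subunit genes Pdha1 and Pdhb rose 1.31-fold and 1.25-fold (edgeR adjusted p = 8.6e-19 and 3.8e-10). Pdk1 was 1.12-fold lower (edgeR adjusted p = 0.00056) and Pdp1 1.94-fold lower, at 4.68 ± 1.29 CPM in 4OHT and 9.39 ± 1.26 CPM in EtOH (SD, n = 3 each; edgeR adjusted p = 0.00013).

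Ketone bodies and acetate are further MCT cargo. Of 7 tested genes for their metabolism, 4 rose and none fell (median log2 fold change 0.27). Among them were Oxct1, which activates ketone bodies for oxidation (1.21-fold, edgeR adjusted p = 0.00046), Bdh2 (1.44-fold, edgeR adjusted p = 0.0055), and Acss1, a mitochondrial acetyl-CoA synthetase (1.87-fold, edgeR adjusted p = 0.0013).

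For carnitine, linked to the Slc16a9 product, 3 of 7 tested genes rose and none fell (median log2 fold change 0.06). Slc25a20, the carnitine carrier of the inner mitochondrial membrane, rose 1.90-fold, to 41.1 ± 1.33 CPM in 4OHT against 21.6 ± 2.58 CPM in EtOH (SD, n = 3 each; edgeR adjusted p = 2.4e-14). Crat, carnitine acetyltransferase, rose 1.69-fold (edgeR adjusted p = 1.6e-05) and Cpt1a, which loads fatty acids onto carnitine, 1.28-fold (edgeR adjusted p = 7.4e-06). The carnitine uptake gene Slc22a5 was named after its values were seen and was at 6.49, 6.47 and 8.25 CPM in 4OHT, against 6.63, 8.34 and 6.62 CPM in EtOH (edgeR adjusted p = 0.98, log2 fold change −0.01). Bbox1 and Tmlhe, which act in carnitine synthesis, had no count in any library.

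Creatine and taurine are substrates reported for some SLC16 proteins. Of 7 tested genes that handle them, 4 rose and none fell (median log2 fold change 0.69), though 1 was called lower with upper quartile factors and without 4OHT replicate 2. Ckb, the brain-type creatine kinase, rose 2.34-fold, to 418, 441 and 407 CPM in 4OHT, against 184, 169 and 189 CPM in EtOH (edgeR adjusted p = 1.5e-78). The mitochondrial creatine kinase gene Ckmt1 rose 1.61-fold (edgeR adjusted p = 7.6e-06), the creatine transporter gene Slc6a8 1.69-fold (edgeR adjusted p = 1.5e-32) and Cdo1, which oxidises cysteine on the way to taurine, 2.39-fold (edgeR adjusted p = 1.2e-06).

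MCT transport carries protons, and a further list holds genes of proton and bicarbonate transport and of carbonic anhydrases. Of 10 tested genes for these, 2 rose and 4 fell (median log2 fold change −0.18). The anion exchanger gene Slc4a2 rose 1.77-fold (edgeR adjusted p = 2.2e-13). The membrane carbonic anhydrase genes Car14 and Car12 were 2.93-fold and 2.44-fold lower (edgeR adjusted p = 0.0017 and 0.010), both from low levels that passed the filter only in EtOH. A fall in them was thus built into their passing, which limits what their p-values and calls show. The call of Car12 was lost with DESeq2 (0.064) and without 4OHT replicate 2 (0.087) or EtOH replicate 3 (0.079), and only 1 fall of the 4 was called by DESeq2, without 4OHT replicate 2 or at a threshold of 0.01. Among 9 tested genes for proteins reported to bind basigin, 3 rose and 3 fell (median log2 fold change −0.06). The integrin gene Itga6 rose 1.42-fold (edgeR adjusted p = 3.6e-22). The amino acid transporter genes Slc7a5, Slc1a5 and Slc3a2 were 1.31-fold, 1.30-fold and 1.16-fold lower (edgeR adjusted p = 9.2e-17, 5.6e-10 and 1.4e-06).

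Over all these lists without Bsg and the 5 transporters, 62 of 87 genes were tested, 21 were higher (33.9%) and 15 lower (24.2%), or 58.1% called, where 42.0% of all tested genes were. The lists were drawn up with earlier results of these data known, so nothing is read from that share. The median log2 fold change was 0.05, against 0.00 over all genes.

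**Figure D4:**
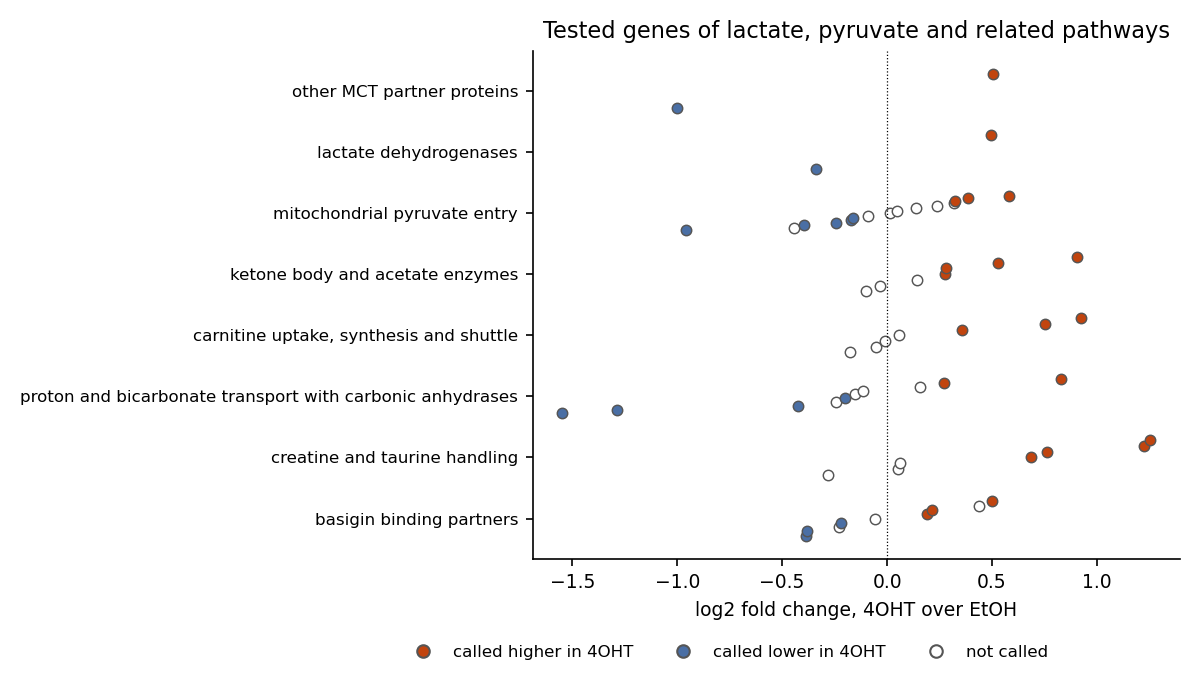
Log2 fold change of 4OHT over EtOH for every tested gene of 8 lists around monocarboxylate transport, 1 point per gene, filled where edgeR called it higher (red) or lower (blue) in 4OHT and open where it did not. The ketone body, carnitine and creatine lists hold calls on the higher side only, and the remaining lists hold at least 1 call on the lower side.

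The genes whose profile over the 6 libraries was closest to that of Slc16a9, by root mean square difference of centred log2 CPM among 12209 genes with a symbol, were Itpr2 (0.13), Lrrc15 (0.23) and Cd63 (0.25). Itpr2 was at 11.9 CPM in 4OHT and 1.34 CPM in EtOH, Lrrc15 at 19.0 CPM in 4OHT and 2.59 CPM in EtOH, and Cd63 at 193 CPM in 4OHT and 33.3 CPM in EtOH. Closest to Bsg were Utp23 (0.0158), Erlin2 (0.0182) and Rap2a (0.0226), with rises of 1.2-fold, 1.24-fold and 1.19-fold. Closest to Slc16a1 were Eif3a (0.0152), Plaa (0.0164) and Polr2m (0.0184), at −0.08, −0.06 and −0.06 on the log2 scale. The profiles share the direction of the difference between the groups, and how much of the likeness lies in it was not measured.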

How the data were processed

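RNA was sequenced in 3 4OHT and 3 EtOH libraries made with a stranded mRNA kit, per the labels. The table deposited by the authors holds raw counts for each gene and a gene length in bases. The submitters' processing notes name mm10, fastp, STAR and featureCounts without roles. Not given in the sources used here were versions, annotation, strand setting and the handling of multi-mapping reads. The members and lists were chosen with earlier results of these data known.

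Genes were kept with filterByExpr (minimum count 10, total 15), which left 12345, scaled with TMM factors and compared with edgeR 4.0.16 in R 4.3.3 (robust quasi-likelihood fit and two-sided test, no block, all 6 libraries), with p-values adjusted by Benjamini-Hochberg over the whole table and called at 0.05. Fold changes are the fit's coefficients, 4OHT over EtOH. Each SE was obtained from the fold change and the F statistic, and 95% intervals use the fit's degrees of freedom. The common dispersion gave a coefficient of variation of 3.59%. TPM was computed from the deposited counts and lengths. No pair of libraries of a group agreed within counting error (chi-square per degree of freedom 1.38 to 2.87). The steps were tested on simulated data.

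Named were the 6 genes, the other SLC16 genes, from each other list the called genes of smallest p (at most 4), Emb, Nptn, Ldha, Ldhb, Mpc1 and Mpc2, and the 3 nearest profiles to each of Slc16a9, Slc16a1 and Bsg. Some genes that this rule names are not reported here. Alternatives were upper quartile factors, DESeq2 size factors, all genes unfiltered, a filter of 1 CPM in 3 libraries, DESeq2 1.42.0, limma-voom 3.58.1, the replicate number as a block, a threshold of 0.01 and leaving out each library. Positions and promoters are from RefSeq on GRCm38.p6, exon overlaps from GENCODE vM21. Of the 6 genes, 3 matched the promoter table. Tables and plots used Python 3.11.15, pandas 2.3.3 and matplotlib 3.10.9.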

Additional observations from a re-analysis of the deposited data

How the results depend on the processing

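The log2 fold change of each of the 6 genes kept its sign in all 13 alternatives and moved by less than 1 SD between replicates in each. Those alternatives gave 2.59 to 3.21 for Slc16a9, 0.26 to 0.33 for Bsg, 0.22 to 0.45 for Slc16a6, −0.11 to −0.06 for Slc16a1, −0.09 to −0.02 for Slc16a3 and −0.20 to −0.02 for Slc16a13. Slc16a1 was called, as lower, with upper quartile factors only. That scaling moved the median of all genes to −0.04 on the log2 scale. Over all genes the fit called 2643 higher and 2546 lower, and between 2306 and 2544 higher and between 2129 and 2407 lower when 1 library was left out. DESeq2 called 1926 and 1761. Among genes of the lists tested by the fit and named here by the rule above, 4 values changed sign, none of them called. Slc22a5, which was named outside that rule, is not in this count. Mpc1 ran from −0.34 to 0.22 on the log2 scale when 1 library was left out, being positive without 4OHT replicate 2 (0.22) and EtOH replicate 1 (0.10). Slc16a4 ran from −0.18 to 0.24, being negative without 4OHT replicate 1 (−0.18) and EtOH replicate 2 (−0.04). The cause was not tested. The replicate block gave 2585 higher and 2497 lower genes, and the same numbers did not pair the libraries (same-numbered libraries had correlations of −0.02 each in their deviations from the group means, over 12345 genes). The block changed no call of the 6 genes or of the list genes named by the rule. Genes with few reads, such as Slc16a13 and the 6 untested SLC16 genes, are limited by depth.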
